A study of Mus musculus with 19 samples.

Results

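The genes described here are 8 fatty acid desaturases and elongases, namely Fads1, Fads2, Fads3, Fads6, Elovl1, Elovl2, Elovl3 and Elovl5. They were taken by symbol from the 24054 genes of the liver RNA-seq table, with Elovl6 left out of the set. The set was chosen by the measured values of the same comparison, so its own values are given as a description and carry no test. Liver RNA-seq of 3 control and 3 L-RalyKO mice was analysed here. All 6 mice were Raly flox/flox on the C57BL/6 background, with LoxP sites around exons 3 and 4 of Raly, a gene of the heterogeneous nuclear ribonucleoprotein family that binds RNA. L-RalyKO mice had received AAV8.TBG.Cre and controls AAV8.TBG.GFP, and livers were collected 4 weeks later. The TBG promoter is active in hepatocytes, so that other liver cells keep the gene. Wild type is the genotype that the labels give for controls, although these mice carry the floxed alleles and a virus as well. The study's methods state a chow diet and, unless specified otherwise, male mice, and no age is given for these animals in the sources used here. The paper notes fasting mice beside its qPCR of chow-fed livers, and whether the sequenced livers came from fasted mice is not stated.

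Mammals cannot make linoleic and alpha-linolenic acid, and the liver turns these dietary acids into longer and more unsaturated ones. In this pathway the desaturases insert double bonds near the carboxyl end, with FADS2 acting before FADS1, and the elongases lengthen the chain between these steps. ELOVL5 and ELOVL2 elongate polyunsaturated chains, while ELOVL1 and ELOVL3 act mainly on saturated and monounsaturated chains that enter sphingolipids, waxes and neutral lipids. The products include arachidonic acid and docosahexaenoic acid, which are built into membrane phospholipids.

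Values are read counts per gene scaled to the effective size of the library, on the CPM scale, and are not divided by gene length. The libraries held between 28302983 and 38052705 reads, and 3 reads correspond to a value between 0.0789 and 0.105. Raly itself fell from 48.5 ± 1.67 (SD, n = 3) in controls to 6.78 ± 0.546 (n = 3) in L-RalyKO livers, and every L-RalyKO liver was below every control. Among 11580 genes tested, 389 were higher and 369 lower in L-RalyKO livers at an adjusted p under 0.05 (limma on log2(value + 1), Benjamini-Hochberg), a split of 324 and 469 with total-count scaling. Leaving out 1 library gave between 332 and 813 called genes, with 369 without control 1 and 332, 437 and 491 without L-RalyKO 1, 2 and 3. The summed level of 6 hepatocyte markers was 81030 to 89920 in controls and 90280 to 91620 in L-RalyKO livers, so that the ranges did not overlap. None of the 6 passed the limma test, and 2 of them, Apoa1 and Cps1, were higher in every L-RalyKO liver. Over 14 alternatives Apoa1 passed the threshold in 1 and Cps1 in 2. Since these are bulk livers, fewer cells of a type and less RNA per cell cannot be told apart.

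All 8 genes were above the minimum mean value of 1. In 5 of them every L-RalyKO liver was above every control, in Elovl5 every L-RalyKO liver was below every control, and in Fads3 and Elovl3 the groups overlapped. Over all tested genes the groups were apart in 28.1%. The limma threshold was passed by Fads1, Fads2 and Elovl2, all higher, beside 6.55% of all tested genes, and since the set was chosen on this contrast nothing is read from these shares. The median log2 difference of the 8 genes was 0.24, and that of all tested genes was 0.0044.

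**Figure D1:**
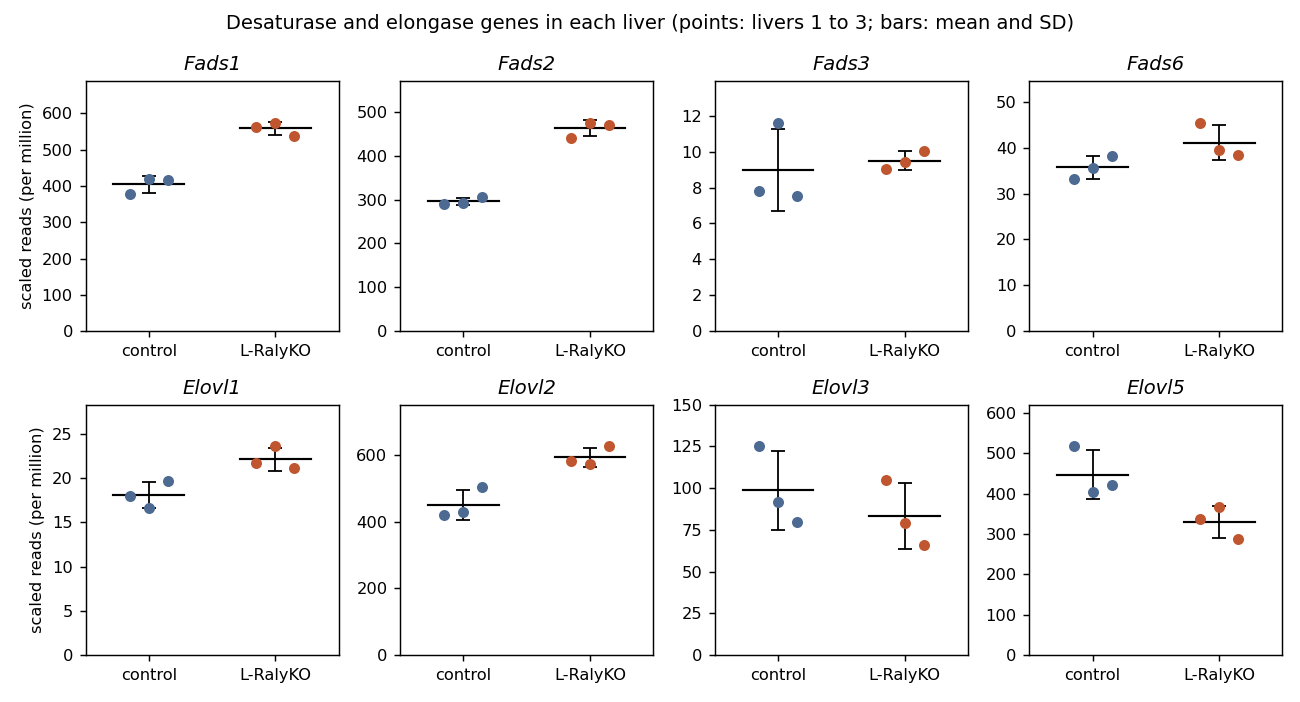
Value of each gene (CPM on the effective library size, linear axes from 0) in 3 control and 3 L-RalyKO livers, with points for livers and bars for the mean and SD. In Fads1, Fads2 and Elovl2 the L-RalyKO points lie well above the control points, in Elovl5 they lie below them, and in Fads3 and Elovl3 the points of both groups overlap.

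Fads1, Fads2 and Fads3 are neighbors on chromosome 19 (GENCODE vM1 on NCBIM37, mm9). Fads3 (ENSMUSG00000024664.3) lies at chr19:10116038-10134161 on the + strand, Fads2 (ENSMUSG00000024665.7) at chr19:10138654-10175993 on the - strand, and Fads1 (ENSMUSG00000010663.4) at chr19:10257378-10271360 on the + strand. The gap between Fads3 and Fads2 is 4492 bp and that between Fads2 and Fads1 is 81384 bp. Fads2 and Fads1 are read away from each other, with their start sites facing the gap between them. The desaturases resemble each other in protein sequence, but 0.343% of the 50-base words in annotated exons of Fads2 were shared with Fads3, 0.153% of those of Fads3 with Fads2, and none of those of Fads1 with another gene of the set.

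Promoter windows from RefSeq (build GRCm38.p6, 250 bases before to 50 after the annotated start) were found for 6 of the 8 genes, as 8 windows among 32851 in the table. Those of Fads2 and Elovl5 are shown because these genes had the highest rise in the set and the only fall without overlap, as 1 window each. The Fads2 window is chr19:10101454-10101753 on the - strand and the Elovl5 window is chr9:77917115-77917414 on the + strand. Both are written 5′ to 3′ along their gene, and capitals mark matches, on either strand, to the motifs searched.
Fads2: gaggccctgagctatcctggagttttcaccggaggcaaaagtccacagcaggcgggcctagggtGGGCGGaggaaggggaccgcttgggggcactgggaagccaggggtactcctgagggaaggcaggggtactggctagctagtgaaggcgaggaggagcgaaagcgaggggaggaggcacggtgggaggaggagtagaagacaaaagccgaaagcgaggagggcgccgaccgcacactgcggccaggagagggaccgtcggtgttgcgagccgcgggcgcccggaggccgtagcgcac
Elovl5: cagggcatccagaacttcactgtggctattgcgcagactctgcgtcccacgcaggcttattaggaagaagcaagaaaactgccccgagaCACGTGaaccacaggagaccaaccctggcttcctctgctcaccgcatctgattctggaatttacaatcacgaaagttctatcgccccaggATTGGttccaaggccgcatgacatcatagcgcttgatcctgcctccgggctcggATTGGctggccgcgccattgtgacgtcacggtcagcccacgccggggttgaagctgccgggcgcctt

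The 5 motifs were searched on both strands, and a match describes letters and not a bound site. The Fads2 window held 1 GC box (GGGCGG), 186 bases before the start, a motif found in 35.7% of all windows. The Elovl5 window held an E-box (CACGTG) 161 bases before the start and the CCAAT box on the reverse strand (read as ATTGG) 71 and 17 bases before it. All windows held CACGTG in 7.15% and CCAAT in 37.4%. CCAAT is the box bound by the factor NFY, and it was also in the Fads3 window, with 2 matches, and in 1 of the 2 Elovl1 windows, there sharing bases with a GC box. The nuclear receptor half-site AGGTCA (16.3% of all windows) had 2 matches in the Fads6 window and 1 in an Elovl1 window. GC boxes were also in the windows of Fads3 (2 matches) and Fads6 (1) and in both of Elovl1 (5 and 2), and 1 of the 2 Elovl2 windows held 5 of them and the other none of the motifs. The sterol response element, written TCACNCCAC, was in 1.24% of all windows and its letters were in none of these 8 windows.

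The pair of desaturases of the polyunsaturated pathway was higher in L-RalyKO livers. Fads2, the desaturase that takes the initial step, had values of 290.6, 291.6 and 305.1 in controls and 441.1, 474.9 and 470.8 in L-RalyKO livers. Its lowest L-RalyKO liver was far above its highest control. The means were 295.8 ± 8.13 and 462.2 ± 18.5 (SD, n = 3), a ratio of 1.56, and the log2 difference was 0.64 (95% interval 0.53 to 0.76, SE 0.050). Of the 8 genes, Fads2 had the highest difference, and between 8315 and 17892 reads per library lay behind its values.

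Fads1, the desaturase that forms arachidonic and eicosapentaenoic acid, had values of 377.2, 419.6 and 417.0 in controls and 563.5, 574.0 and 537.0 in L-RalyKO livers. The groups were again well apart. The means were 404.6 ± 23.8 and 558.2 ± 19.0 (n = 3), a ratio of 1.38, with a log2 difference of 0.46 (0.33 to 0.60, SE 0.058) and 11968 to 20410 reads per library. Within a liver, the ratio of Fads2 to Fads1 was 0.770, 0.695 and 0.732 in controls and 0.783, 0.827 and 0.877 in L-RalyKO livers, so that the ratio too was higher in each L-RalyKO liver, by a small margin over control 1. Over the 14 alternatives in processing, the log2 difference of Fads2 was between 0.61 and 0.68 and that of Fads1 between 0.41 and 0.49.

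The remaining desaturases of the set were lower in level and moved little. Fads3, which introduces a double bond into the sphingoid base of ceramides, had values of 7.81, 11.6 and 7.52 in controls and 9.02, 9.43 and 10.1 in L-RalyKO livers. Control 2 was above all L-RalyKO livers and the other two controls were below them. The ratio of the means was 1.06 and the log2 difference was 0.10 (-0.23 to 0.42), and it took the opposite sign (-0.0065) without control 3. With 262 to 382 reads per library Fads3 was the least sequenced gene of the set. Fads6 (ENSMUSG00000044788.9, chr11:115140936-115158977, - strand), a family member of which little is known, had values of 33.3, 35.7 and 38.3 in controls and 45.5, 39.4 and 38.4 in L-RalyKO livers. The groups touched without overlapping, the log2 difference was 0.19 (0.016 to 0.37), and L-RalyKO 1 stood highest, without which the difference was 0.12. The sum of the 4 Fads genes was 708.9, 758.5 and 768.0 in controls and 1059, 1098 and 1056 in L-RalyKO livers, and most of it came from Fads1 and Fads2.

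The elongases of polyunsaturated chains went in opposite directions. Elovl2 (ENSMUSG00000021364.9, chr13:41277864-41315774, - strand), the elongase needed for docosahexaenoic acid, had values of 419.9, 429.7 and 503.5 in controls and 582.1, 574.8 and 627.0 in L-RalyKO livers. All L-RalyKO livers were above control 3, the highest control. The means were 451.0 ± 45.7 and 594.6 ± 28.3 (n = 3), a ratio of 1.32, with a log2 difference of 0.40 (0.23 to 0.57, SE 0.076) and 12254 to 23829 reads per library. The call of Elovl2 was lost when control 1, control 2, L-RalyKO 1 or L-RalyKO 3 was left out, and between 2 and 4 genes of the set passed the threshold when 1 library was left out.

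Elovl5 (ENSMUSG00000032349.7, chr9:77765171-77832326, + strand), which elongates shorter polyunsaturated chains between the steps of FADS2 and FADS1, had values of 516.9, 403.2 and 420.5 in controls and 336.8, 366.2 and 286.8 in L-RalyKO livers. Control 1 stood above the other controls, and the lowest control was still above the highest L-RalyKO liver. The means were 446.8 ± 61.3 and 329.9 ± 40.1 (n = 3), a ratio of 0.738, with a log2 difference of -0.44 (-0.69 to -0.18, SE 0.11) and 10899 to 17341 reads per library. It did not pass the adjusted threshold with limma, while DESeq2, total-count scaling and a replicate block placed it past it. The log2 difference was -0.33 without control 1 and -0.34 without L-RalyKO 3. Control 1 was also the liver with the highest Cfd, an adipocyte gene, at 12.6 beside 2.74 and 3.46 in the other controls and 0.132 to 1.10 in L-RalyKO livers. The summed level of 6 adipocyte markers was 7.85 to 20.7 in controls and 5.61 to 5.99 in L-RalyKO livers, and of the 2 tested markers Cfd was called (log2 difference -2.10, adjusted p = 0.0318), a call that held in 8 of 13 alternatives and was lost without L-RalyKO 1 or 3, with edgeR (0.143), with all genes that had a read (0.0685) and without the intensity trend (0.0589). Of the defining markers, Adipoq (0.119), Lep (0.209) and Retn (0.149) were above the value of 3 reads (0.0894) in control 1. They were at 0 or under that of 3 reads in every other liver. Plin1 was at 0 or under it in all livers, with 0.0596 in control 1 and 0.0701 in control 2. In controls 2 and 3 Cfd was above every L-RalyKO liver, although these other adipocyte markers were at or near 0 there. The part of these cells in the values of Elovl5 was not tested.

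**Figure D2:**
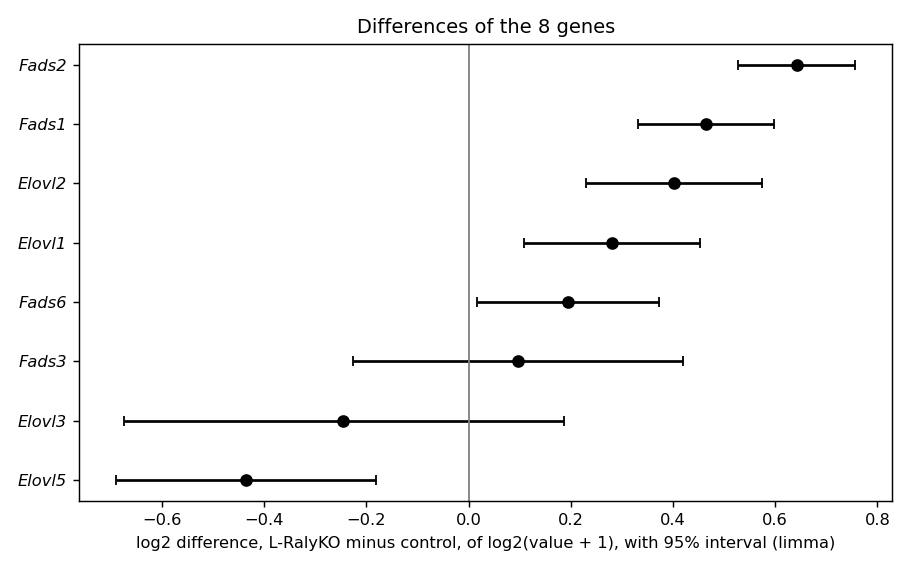
Log2 difference between L-RalyKO and control livers of log2(value + 1) for each gene, with the 95% interval from limma (n = 3 livers per group). Fads2, Fads1 and Elovl2 lie highest, from 0.40 to 0.64, and Elovl5 lies lowest at -0.44. The genes were chosen with this contrast known, so the plot is a description.

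Elovl1 and Elovl3 make very long saturated and monounsaturated chains. Elovl1 (ENSMUSG00000006390.9, chr4:118100698-118105558, + strand) had values of 17.9, 16.7 and 19.6 in controls and 21.7, 23.6 and 21.1 in L-RalyKO livers. The groups were apart, with a ratio of the means of 1.23 and a log2 difference of 0.28 (0.11 to 0.45). Its annotated span overlaps Cdc20 on the opposite strand, which had 8 to 13 reads per library. Elovl3 (ENSMUSG00000038754.3, chr19:46206387-46210184, + strand), known in brown fat and skin and in liver for its daily rhythm and its higher level in males, had values of 125.0, 91.5 and 79.6 in controls and 104.6, 78.8 and 66.0 in L-RalyKO livers. The livers of each group spread widely, with a coefficient of variation of 23.9% in controls and 23.6% in L-RalyKO livers, and the groups overlapped. The log2 difference was -0.24 (-0.68 to 0.19). It was -0.06 without control 1, -0.09 without L-RalyKO 3, -0.39 without control 3 and -0.42 without L-RalyKO 1. Single livers thus moved it both ways. Elovl3 did not pass the adjusted threshold in the main limma test, while a replicate block placed it past it (adjusted p = 0.0319). The labels give no pairing for the replicate numbers. The values of Elovl3 fell in the order of these numbers in both groups, and a shared effect was not tested. Pitx3, which overlaps Elovl3 on the opposite strand, had 11 to 43 reads per library. Control 1 was also highest in Cidea, a lipid droplet gene of brown fat, at 14.1 beside 0.526 and 0.892 in the other controls and 0, 0.087 and 0 in L-RalyKO livers (log2 difference -1.77, adjusted p = 0.192), while Ucp1, the defining gene of brown adipocytes, was at or near 0 in all livers. The summed level of 4 brown adipocyte markers was 8.41 to 22.8 in controls and 12.97 to 13.85 in L-RalyKO livers. In L-RalyKO livers this sum was almost all Ppargc1b, with Cidea and Ucp1 near 0 and Cox7a1 at 0.439 on average. With Ucp1 near 0 in all livers, the sum is not read as a measure of brown adipocytes. The 2 tested markers differed in direction. Over 13 alternatives the log2 difference of Cidea ran from -7.50 to -0.72. Cidea was lower in every L-RalyKO liver without passing the test, and Ppargc1b was higher, at 8.477 ± 1.501 in controls and 12.9 ± 0.467 in L-RalyKO livers (n = 3; log2 difference 0.57, adjusted p = 0.0204), and this call held in 9 of 14 alternatives and was lost without control 1, without any 1 of the L-RalyKO livers and with all genes that had a read (0.0515). The part of these markers in the values of Elovl3 was not tested.

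The sum of the 4 Elovl genes was 1080, 940.9 and 1023 in controls and 1045, 1043 and 1001 in L-RalyKO livers. With means of 1015 ± 69.8 and 1030 ± 25.1 (n = 3), the L-RalyKO sums lay within the range of the controls, although Elovl2 and Elovl5 moved apart within it. The ratio of Elovl5 to Elovl2 in a liver was 1.23, 0.938 and 0.835 in controls and 0.579, 0.637 and 0.457 in L-RalyKO livers. The ratio of Fads2 to Elovl5 was 0.562, 0.723 and 0.726 in controls and 1.31, 1.30 and 1.64 in L-RalyKO livers, 2.11 times the control mean. The groups did not overlap in either ratio, and both follow from the values that chose the set.

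**Figure D3:**
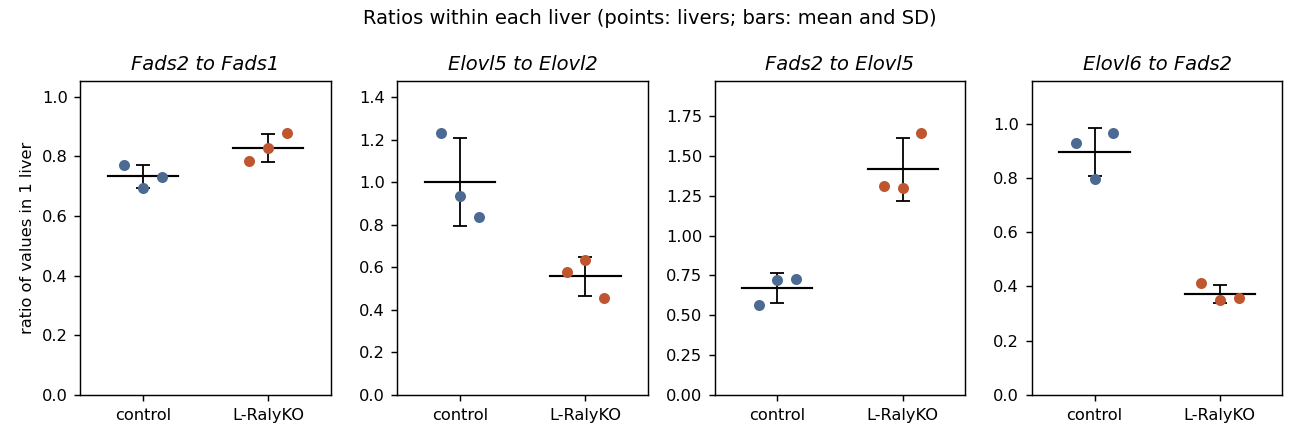
Ratio of the values of a pair of genes within each liver (points), with the mean and SD of 3 livers per group, on linear axes from 0. The Elovl5 to Elovl2 and Elovl6 to Fads2 ratios were lower and the Fads2 to Elovl5 ratio higher in every L-RalyKO liver than in any control, and the Fads2 to Fads1 ratio rose from 0.732 to 0.829 on average. The genes of the set were chosen with this contrast known, so the plot is a description.

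Levels can be compared between genes only per length of transcript, here the values divided by the kilobases of annotated exon. In controls Fads2 had the highest level per kb (196 ± 5.39), followed by Elovl5 (127 ± 17.4), Elovl2 (117 ± 11.9) and Fads1 (117 ± 6.88), whose ranges over livers overlapped from one to the next. Elovl3 followed at 52.5 ± 12.5, and Elovl1 (6.63 ± 0.546), Fads6 (5.37 ± 0.377) and Fads3 (2.75 ± 0.698) were the low genes of the set. In L-RalyKO livers the order of levels per kb was Fads2 (306.5 ± 12.2), Fads1 (161.5 ± 5.51), Elovl2 (154.4 ± 7.34), Elovl5 (93.7 ± 11.4) and Elovl3 (44.2 ± 10.4), with the low genes in the same order as before. In L-RalyKO livers Elovl5 lay below both Fads1 and Elovl2 without overlap, and only Fads1 and Elovl2 had overlapping ranges with the neighbor in the order. In controls these 3 genes have no order beyond their spread. The place of Fads2 depends on its annotated exons of 1508 bp in GENCODE vM1, the shortest model of the set.

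**Figure D4:**
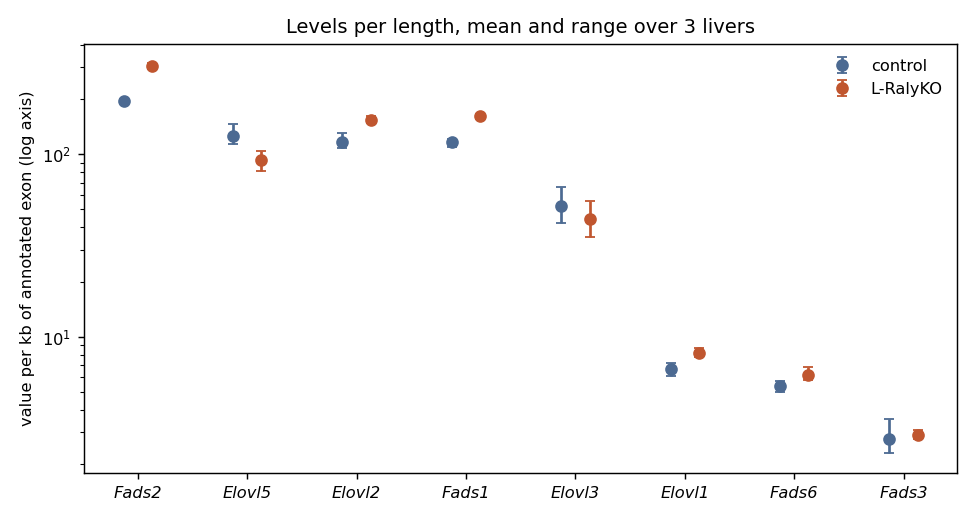
Level per kb of annotated exon (log axis) of each gene in control and L-RalyKO livers, with points for the mean and bars for the lowest and highest of 3 livers. The means of 5 genes lie between 44.2 and 306.5 and Elovl1, Fads6 and Fads3 lie at or below 8.12 on average.

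Over the 6 livers, the genes whose log2(value + 1) ran most closely with Fads2 were Ybx3 (Pearson r = 0.998), Ipmk (0.996) and Fkbp2 (0.993). Those closest to Fads1 were Pitpnm2 (0.996), Nnmt (0.995) and Map3k5 (0.995). With 6 livers in 2 groups and 11580 genes to choose from, these values rank the genes and carry no test. Fkbp2 differed between the groups by 0.03 on the log2 scale, while the other five differed by 0.52 to 1.08.

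The genes around this pathway were described from 13 lists of 112 genes, of which 85 were tested. The limma test called 10 of the 85 (11.8%, beside 6.55% of all tested genes), 4 higher and 6 lower, and the median log2 difference over the 85 was 0.04. The lists were written with earlier results of these data known, so nothing is read from this share. The lists of male-biased and female-biased liver genes, which are not of this pathway, held 2 of the called genes each. The count of called list genes was 6 without control 1 and 4 without L-RalyKO 1. Most lists of enzymes that supply or use these fatty acids held no called gene, and the values below are given for the called genes and, of each list without one, for the gene with the highest mean value over the 6 livers, not divided by length.

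Elovl6, which elongates palmitate and was the only one of 3 other elongases with a mean value above 1, was lower in L-RalyKO livers. Its values were 270.1, 231.9 and 294.4 in controls and 181.6, 166.1 and 168.6 in L-RalyKO livers, a log2 difference of -0.62 (adjusted p = 0.00527, between 1.23e-10 and 0.0235 over 14 alternatives). Among the other acyl desaturases, 0 of 3 tested genes were called. Scd1, the main stearoyl-CoA desaturase of liver, ranged from 10630 to 18580 in controls and from 11930 to 17240 in L-RalyKO livers (log2 difference 0.09, adjusted p = 0.858), and its sign turned without control 2 or L-RalyKO 2. The ratio of Elovl6 to Fads2 in a liver fell from 0.897 ± 0.0892 to 0.373 ± 0.0337 (n = 3) without overlap. Fads2 belongs to the set chosen on this contrast and Elovl6 was called lower. The separation follows from those values and carries no test. The ratio of Fads1 and Fads2 to Scd1 overlapped (0.0518 ± 0.0155 and 0.0697 ± 0.0129).

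Of the other enzymes of the elongation cycle, which reduce and dehydrate the lengthened chain, 0 of 5 tested were called. The dehydratase gene Ptplad1, also named Hacd3, had the highest mean value over the 6 livers and a log2 difference of 0.14 (adjusted p = 0.222). Hsd17b12, the ketoacyl reductase gene, was named here after its values were seen and went the other way, with the groups apart. Its means were 190.3 ± 17.9 in controls and 162.0 ± 2.22 in L-RalyKO livers (n = 3, log2 difference -0.23, adjusted p = 0.0815). It passed the threshold in 1 of 14 alternatives. Of the genes of cytochrome b5 electron transfer, which passes electrons to desaturases, 0 of 5 were called. Cyb5, also named Cyb5a, had means of 767.5 ± 31.3 and 767.9 ± 13.8 (n = 3) and a log2 difference of 0.001 (95% interval -0.12 to 0.12, adjusted p = 0.9898).

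Among 8 tested acyl-CoA synthetases, which activate fatty acids, 1 was called. Acsl4, the isoform that prefers arachidonic acid, had values of 48.88, 50.04 and 57.42 in controls and 73.0, 71.1 and 70.0 in L-RalyKO livers, a log2 difference of 0.45 (adjusted p = 0.0072, at most 0.0357 over 14 alternatives). The lists of lysophospholipid acyltransferases (4 tested), ceramide synthases (4) and arachidonate release and oxidation (5) held no called gene. In these, Lpcat3, which places polyunsaturated chains into phospholipids, differed by -0.09 (adjusted p = 0.568), Cers2 by -0.04 (0.710) and the epoxide hydrolase gene Ephx2 by -0.03 (0.772). Of 13 genes of peroxisomal beta-oxidation, which shortens very long chains, 5 had a positive and 8 a negative difference, and 1 was called. It was Abcd2, a peroxisomal transporter of very long-chain acyl-CoA, with values of 13.6, 17.7 and 16.8 in controls and 11.5, 9.02 and 12.2 in L-RalyKO livers (log2 difference -0.52, adjusted p = 0.0476). Its call held in 6 of 14 alternatives (0.00232 to 0.124), and it was lost with each library left out except control 1, with all genes that had a read (0.0960), without the intensity trend (0.0755) and with the replicate block (0.0735).

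**Figure D5:**
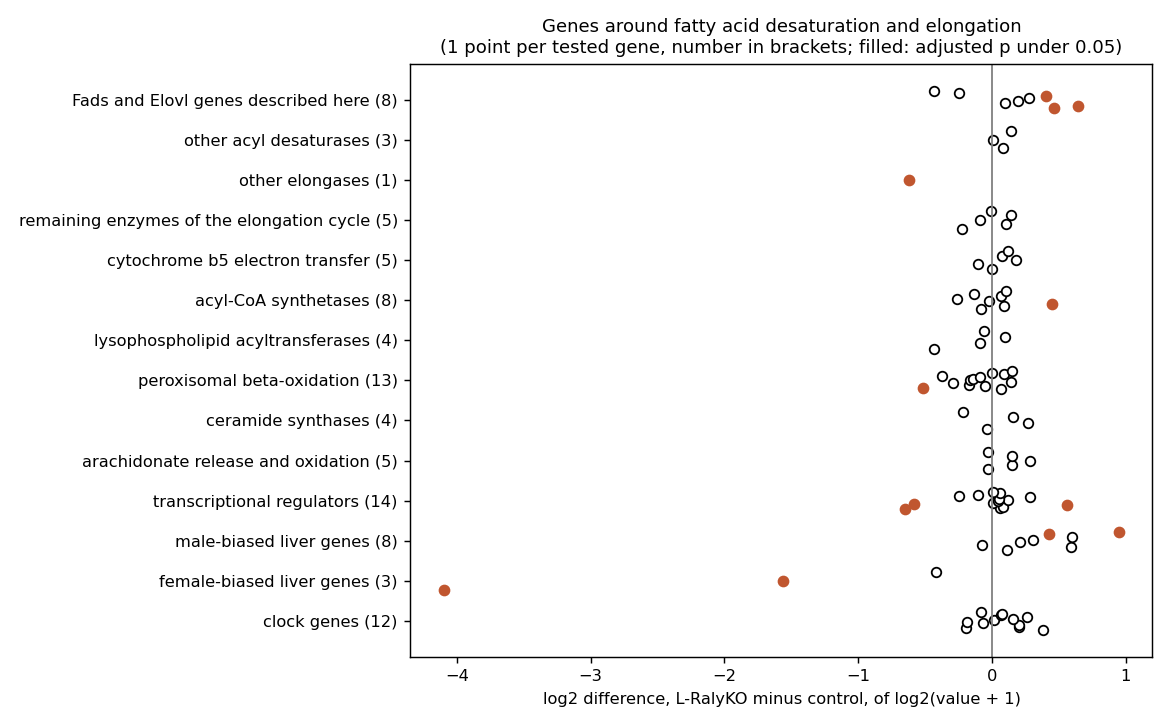
Log2 difference between L-RalyKO and control livers for each tested gene of the 8 genes described and of 13 lists around them, 1 point per gene, filled where the adjusted p (limma) was under 0.05. Filled points are few in the enzyme lists, with Elovl6 at -0.62, Acsl4 at 0.45 and Abcd2 at -0.52.

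Of 14 transcriptional regulators tested, 1 was called higher and 2 lower, with a median log2 difference of 0.05 over the list. Srebf1, which encodes the SREBP1 factors of fatty acid synthesis and desaturation, had values of 322.8, 298.9 and 312.4 in controls and 190.7, 244.6 and 166.2 in L-RalyKO livers (log2 difference -0.65, adjusted p = 0.0173). Insig1 and Insig2, which encode proteins that hold SREBP in the endoplasmic reticulum, went in opposite directions. Insig1 rose from 125.6 ± 20.1 to 185.3 ± 18.0 (n = 3; 0.56, adjusted p = 0.0211), and Insig2 fell from 133.5 ± 22.5 to 88.3 ± 6.11 (n = 3; -0.58, adjusted p = 0.019). Leaving out L-RalyKO 1 ended all 3 calls (adjusted p = 0.0649 for Srebf1, 0.0748 for Insig1 and 0.0735 for Insig2). Without control 1, Srebf1 (0.063) and Insig1 (0.0737) missed the threshold, as did Insig1 without L-RalyKO 2 (0.0583). The adjusted p was at most 0.0649, 0.0748 and 0.0735 over 14 alternatives for these 3 genes.

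Lists of sex-biased liver genes and of clock genes were included because Elovl3 is known for both kinds of variation. Of 8 male-biased genes, 2 were called higher and 7 had a positive difference, with a median of 0.37 on the log2 scale. Cyp7b1, an oxysterol hydroxylase, had values of 139.5, 181.9 and 158.4 in controls and 222.0, 194.9 and 226.5 in L-RalyKO livers (0.43, adjusted p = 0.0377, 0.000641 to 0.120 over 14 alternatives). Its call held in 6 of 14 alternatives and was lost without control 1 or 3, without L-RalyKO 1 or 3, with edgeR (0.0534), with all genes that had a read, without the intensity trend and with the replicate block (0.0678). Serpina1e, a secreted protease inhibitor with close copies among which reads may be shared, differed by 0.95 (adjusted p = 0.0464). Its call held in only 4 of 14 alternatives (0.0273 to 0.168). It was lost without each library except control 2, with DESeq2 (0.0513) and edgeR (0.168), with all genes that had a read, without the intensity trend and with the replicate block (0.0555). Of 8 female-biased genes, 5 had a mean value under 1 and were not tested. Of the 3 tested, 2 were called lower, both of them Cyp2b genes. Cyp2b9, a cytochrome P450 with close copies, had values of 65.2, 48.9 and 36.3 in controls and 0.873, 2.15 and 3.18 in L-RalyKO livers (-4.10, adjusted p = 0.000406, at most 0.0145 over 14 alternatives). Its copy Cyp2b13 had values of 2.12, 1.26 and 2.97 in controls and was under the value of 3 reads in every L-RalyKO liver (adjusted p = 0.00363). Of 12 clock genes tested, 8 had a positive and 4 a negative difference and none was called in the main limma test. Arntl, Nr1d2 and Cry2, all with a positive difference, each passed the threshold in 1 alternative. Tef, with the highest mean value of the 12 clock genes, differed by 0.08 (adjusted p = 0.454).

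The summed level of markers of other liver cells overlapped between the groups for 4 cell types and not for cholangiocytes. The summed level of 5 Kupffer cell markers was 124.7 to 184.0 in controls and 129.2 to 166.6 in L-RalyKO livers, that of 4 endothelial markers 140.1 to 146.6 and 121.3 to 154.8, and that of 4 stellate cell markers 191.9 to 207.8 and 178.0 to 225.3. None of these 13 genes passed the test. The sum of 4 lymphocyte markers was 1.05 to 2.31 in controls and 0.873 to 1.57 in L-RalyKO livers, and all 4 were under the mean value of 1 needed for testing. The sum of 4 cholangiocyte markers was 4.62 to 5.93 in controls and 6.85 to 8.35 in L-RalyKO livers, so that the ranges did not overlap. Of the 2 that were tested neither passed, and Sox9 was higher in every L-RalyKO liver (3.11 ± 0.838 in controls and 4.96 ± 0.823 in L-RalyKO livers, n = 3; log2 difference 0.55, adjusted p = 0.0774, past the threshold in 3 of 13 alternatives). Their part in the differences of the desaturases and elongases was not tested.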

How the data were processed

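RNA-seq of 3 control and 3 L-RalyKO livers was analysed, and the ATAC-seq and ChIP-seq of the study were not analysed here. Each column was assigned to a mouse from its virus name and replicate number. The methods describe stranded paired-end libraries aligned with TopHat to mm9 and quantified with Cufflinks (2.0.2 in the submitters' processing notes) and Cuffdiff. The values the authors deposited are a scaled signal per gene that these methods do not describe, and the counter behind it is not given in the sources used here. Divided by the step of its library, 100% of the deposited values gave a whole number (tolerance 0.01 reads), and read counts were recovered in this way, and the scaling factors equalled those of TMM. Intervals per gene are 95% limma intervals for the difference between the group means. They use a variance moderated over all tested genes and rest on these 6 mice.

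The main test was limma 3.58.1 in R 4.3.3, with the trend option, applied to log2(value + 1) of genes whose mean value reached 1. Adjustment was by Benjamini-Hochberg over all of these genes, with a threshold of 0.05. A difference is on the log2(value + 1) scale and understates changes of low genes. With 3 mice a group, exact permutation tests cannot pass this threshold and were not run. Alternatives were edgeR 4.0.16 (quasi-likelihood) and DESeq2 1.42.0 on the recovered reads, total-count scaling, a pseudocount of 0.1, no intensity trend, all genes with a read, a mean value of at least 5, a replicate block, and leaving out each mouse. The code was tested on simulated data.

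The genes and lists were chosen with earlier results of these data known. Named were the 8 genes, Raly, each called gene of a list or, where a list had none, the gene with its highest mean value over the 6 livers, the 3 genes most like each of the 2 genes with the largest differences, and marker genes beside a result. List symbols missing from the table were matched through RefSeq synonyms.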

Additional observations from a re-analysis of the deposited data

How the results depend on the processing

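The signs of Fads1, Fads2, Fads6, Elovl1, Elovl2, Elovl3 and Elovl5 were the same in all 14 alternatives, while Fads3 ran from -0.0065 (without control 3) to 0.28 (without control 2). Over these alternatives the log2 difference ran from 0.12 to 0.24 for Fads6, 0.23 to 0.34 for Elovl1, 0.35 to 0.48 for Elovl2, -0.42 to -0.06 for Elovl3 and -0.51 to -0.33 for Elovl5. DESeq2 called 5 of the 8 genes (Elovl1 and Elovl5 in addition), edgeR 3, and the replicate block 5 (Elovl3 and Elovl5 in addition). Same-numbered mice are different animals, and the labels give no pairing between them. Over all tested genes their deviations from the group means correlated by 0.0664, -0.0238 and 0.0196. A shared effect of the number on single genes was not tested. The replicate block gave 704 called genes in place of 758. Testing all genes with a read left 484 calls (254 higher, 230 lower), while DESeq2 made 1088 and edgeR 783 on the recovered reads. With 1 mouse left out there were 332 to 813 calls, 168 to 454 of them higher and 164 to 359 lower, and 4 to 11 of the list genes were called. The sign of several list genes near 0 turned in some fits, and among those named in the report these were Cyb5 (-0.0031 with DESeq2, -0.0011 with edgeR, -0.033 with total-count scaling, -0.032 to 0.024 with a mouse left out), Scd1 (-0.11 to 0.29), Ephx2 (-0.054 to 0.0049) and Cers2 (-0.070 to 0.00032), the last 3 with a mouse left out. The cause of these changes was not tested. Fads3 had the fewest reads of the set, 262 to 382 per library.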
